A study of Mus musculus with 9 samples.

Results

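The genes described here belong to the response of the endoplasmic reticulum (ER) to protein folding stress. The 10 genes were Hspa5, Hsp90b1, Dnajb9, Sdf2l1, Herpud1, Xbp1, Atf4, Ddit3, Trib3 and Chac1, taken by name from the 20968 mouse genes that the probes of the array could be matched to. They were measured by 12 probes, since Dnajb9 and Atf4 had a pair of probes each, and all 12 were well above background on all 9 arrays. RNA was from liver of male mice, 20 weeks old by the methods of the study, with 1 array per mouse and 3 mice in each of 3 groups. STAM mice are C57B/6J mice that were given streptozotocin, which kills the insulin-secreting cells of the pancreas, as newborns and a high-fat diet after weaning, and they develop diabetes, steatohepatitis and liver tumours. STAM-NON mice received no further treatment and STAM-INS mice received the long-acting insulin glargine by injection. Normal mice were lean mice without streptozotocin or the high-fat diet, so that a comparison of STAM with Normal joins both of these and cannot tell them apart. Whether the pieces of STAM liver held tumour tissue is not given in the sources used here.

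The ER folds secreted and membrane proteins, and in the liver it carries the load of plasma protein secretion. When unfolded proteins build up, 3 sensors in the ER membrane respond. Ire1 (gene Ern1) splices the mRNA of Xbp1, Atf6 is cut to release a transcription factor, and Perk (gene Eif2ak3) phosphorylates the translation factor eIF2α, which lowers protein synthesis while favouring translation of Atf4. Atf6 and spliced Xbp1 induce chaperones and genes of ER-associated degradation, while Atf4 induces genes of amino acid supply and, with continued stress, the pro-apoptotic factor Ddit3 (also called Chop). Atf4 can also be reached without the ER, through other eIF2α kinases. The splicing of Xbp1, the cutting of Atf6 and the translation of Atf4 are not seen by these probes, which measure the amount of mRNA.

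The promoter sequences below are shown because 3 of the 10 members hold a classical ER stress response element, with Ddit3 as an example of the 7 members in which no match was found. They are from RefSeq (GRCm38.p6), which held a promoter for all 10 genes, and each is written 5′ to 3′ on the strand of its gene. The ER stress response element (ERSE) was searched as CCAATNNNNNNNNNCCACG and the element ERSE-II as ATTGG and CCACG with 1 base between them, on both strands, in the 250 bases before each start site. Capitals mark the fixed letters of a match.
Hspa5, chr2:34772015-34772053, plus strand: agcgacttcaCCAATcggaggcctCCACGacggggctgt
Hsp90b1, chr10:86705523-86705666, minus strand: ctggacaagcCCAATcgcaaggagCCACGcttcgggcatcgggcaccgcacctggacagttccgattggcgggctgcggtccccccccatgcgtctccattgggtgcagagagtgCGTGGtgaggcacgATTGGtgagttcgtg
Herpud1, chr8:94386367-94386397, plus strand: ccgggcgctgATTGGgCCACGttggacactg
Ddit3, chr10:127290733-127290792, plus strand: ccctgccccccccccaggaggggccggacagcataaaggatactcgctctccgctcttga

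Counted in bases from the start site, the match in Hspa5 lay from -65 to -47 and that in Herpud1 from -52 to -42. Hsp90b1 had a pair of matches, from -212 to -194 on the strand of the gene and from -107 to -89 on the opposite strand. ERSE was present in 0.113% of the 32851 promoter windows of that length (37 windows) and ERSE-II in 0.0304% (10 windows). The windows of Dnajb9, Sdf2l1, Xbp1, Atf4, Ddit3, Trib3 and Chac1 held none, and members with and without a match were not compared in expression. The stretch printed for Ddit3 is the 60 bases next to its start site and holds no match. The core of the unfolded protein response element (TGACGTGG) and the composite C/EBP-ATF site (TGATGNAAT) were found in none of the 10 windows and in 0.563% and 0.816% of all windows. A match describes these letters only, and other positions and spellings were not searched.

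Of the whole data set, 26289 probes of 13386 named genes were tested. Values are given as centred log2 signal, which is log2 of the background-subtracted signal after subtraction of its 75th percentile over the spots of that array, and signals are compared only within a probe. Between 46.2% and 65.0% of spots on an array were well above background, and arrays of the same group correlated with r between 0.979 and 0.991 over tested probes. All 6 STAM arrays lay on 1 slide and all 3 Normal arrays on another, so in every comparison with Normal the slide and the group cannot be told apart. Groups were compared with limma over all 9 arrays, and adjusted p-values are those of limma after Benjamini-Hochberg adjustment over all tested probes. The medians of all tested genes moved with the scaling: for STAM-NON against Normal the median difference was -0.11 as reported, 0.20 when arrays were centred on spike-in controls and -0.26 when centred on the array median.

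In STAM-NON liver, Ddit3 was the only member that passed the threshold against Normal, and it was higher. In STAM-INS liver, Herpud1 was the only member that passed against Normal, and it was lower. No member passed between STAM-INS and STAM-NON. The call of 1 of 10 members between STAM-NON and Normal stands beside 16.8% of all 13386 tested genes called in that comparison (7.87% higher and 8.93% lower). The call of 1 of 10 between STAM-INS and Normal stands beside 13.6% of all genes (6.15% higher and 7.49% lower), and the 0 of 10 between STAM-INS and STAM-NON beside 0.0822% (0.0224% higher and 0.0598% lower). By these shares the members were called no more often than genes at large. At an unadjusted p under 0.05 the members numbered 3 for STAM-NON against Normal (36.2% of all genes), 1 for STAM-INS against STAM-NON (9.32%) and 3 for STAM-INS against Normal (32.1%). The groups did not overlap for 2 members between STAM-NON and Normal (40.9% of all genes). Over the 10 members the median difference between STAM-NON and Normal was -0.10, where that of all genes was -0.11. For STAM-INS it was 0.27 from STAM-NON and -0.32 from Normal, where all genes were at 0.03 and -0.07.

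**Figure D1:**
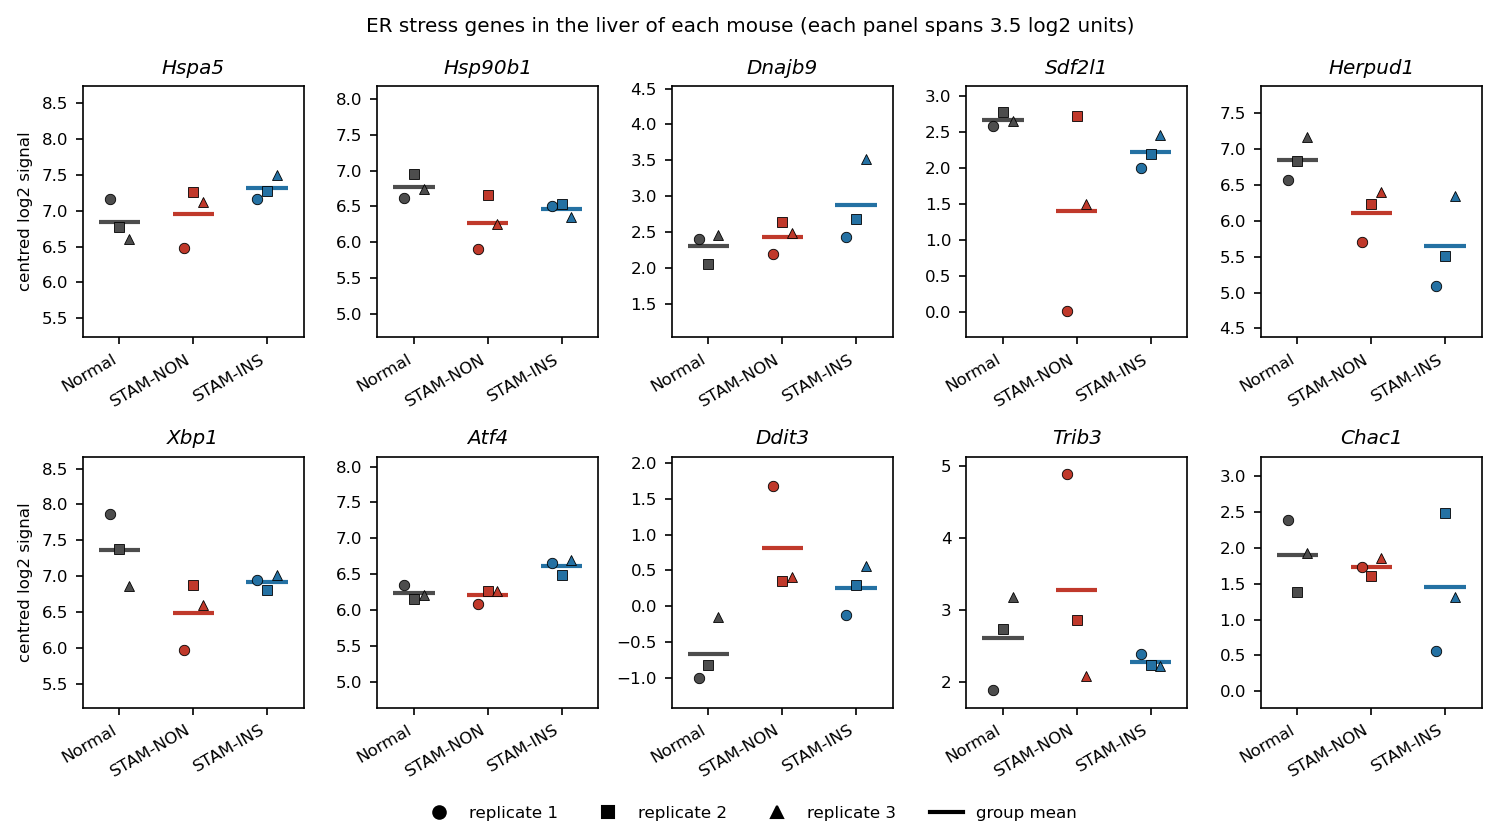
Centred log2 signal (vertical axis, 3.5 log2 units in every panel) of the 10 ER stress genes in each mouse, with 1 panel per gene, 1 column per group, a marker for each of the 3 replicates and a bar at the group mean. For Ddit3 the 3 Normal mice lie at -1.01 to -0.16, below all 6 STAM mice, while the STAM-NON 1 marker is the lowest of 9 for Sdf2l1 and the highest for Trib3.

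The chaperones of the ER lumen were described first. Hspa5 encodes BiP, the Hsp70 chaperone that binds unfolded chains and holds the sensors inactive, and its induction is the usual sign of ER stress. Its centred log2 signal was 6.48, 7.26 and 7.12 in STAM-NON 1, 2 and 3, 7.17, 7.28 and 7.49 in STAM-INS, and 7.16, 6.77 and 6.60 in Normal. The untreated STAM mice thus lay on both sides of the Normal mice, while all 3 STAM-INS mice were above them, though the lowest of these was barely above the highest Normal mouse. The difference between STAM-NON and Normal was 0.11 ± 0.23 (SE, n = 3 per group), with a 95% interval of -0.41 to 0.63 and an adjusted p of 0.75 in limma, and its sign turned when arrays were centred on their median (-0.04). That between STAM-INS and Normal was 0.47 ± 0.23 (adjusted p = 0.192 in limma). STAM-INS exceeded STAM-NON by 0.36, with overlapping groups (adjusted p = 0.695 in limma) and only 0.12 without STAM-NON replicate 1.

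Hsp90b1, the Hsp90 paralogue of the ER (Grp94), was at 5.91, 6.66 and 6.26 in STAM-NON, 6.51, 6.53 and 6.35 in STAM-INS, and 6.62, 6.95 and 6.75 in Normal. All 3 STAM-INS mice and 2 of 3 STAM-NON mice were below every Normal mouse. The difference from Normal was -0.50 ± 0.19 in STAM-NON (adjusted p = 0.101 in limma) and -0.31 ± 0.19 in STAM-INS (adjusted p = 0.288 in limma), so neither passed. Leaving out STAM-NON replicate 2 made the former -0.69 with an adjusted p of 0.0228, and leaving out STAM-NON replicate 1 made it -0.31 with 0.247.

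Sdf2l1 is a luminal cofactor of BiP that is strongly induced by ER stress. It was spread widely among untreated STAM mice, at 0.0039, 2.72 and 1.49 in STAM-NON, beside 2.0, 2.20 and 2.46 in STAM-INS and 2.59, 2.79 and 2.66 in Normal. STAM-NON 1 was 2.10 log2 units below the mean of the other 2 mice of its group. The STAM-INS mice were all below the Normal mice, and STAM-NON 2 was within the Normal range. The difference between STAM-NON and Normal was -1.27 ± 0.56 (adjusted p = 0.141 in limma), which became -0.57 without STAM-NON replicate 1 and -1.93, with an adjusted p of 0.0157, without STAM-NON replicate 2. That between STAM-INS and Normal was -0.46 ± 0.56 (adjusted p = 0.595 in limma).

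Dnajb9, an ER cochaperone of BiP that represses Ire1, was at 2.19, 2.64 and 2.48 in STAM-NON, 2.44, 2.68 and 3.51 in STAM-INS, and 2.41, 2.06 and 2.46 in Normal. The groups overlapped in all 3 comparisons on this probe, and STAM-INS 3 stood above the other 8 mice. STAM-INS differed from Normal by 0.57 ± 0.27 (adjusted p = 0.187 in limma) and from STAM-NON by 0.44 ± 0.27 (adjusted p = 0.683 in limma). The other probe of the gene gave 0.70 and 0.51 for the same comparisons, so the 2 probes had the same sign.

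Herpud1 encodes a membrane protein that assembles the machinery of ER-associated degradation, by which misfolded proteins are sent to the proteasome. Its centred log2 signal was 5.70, 6.24 and 6.40 in STAM-NON, 5.09, 5.51 and 6.34 in STAM-INS, and 6.57, 6.83 and 7.16 in Normal. All 6 STAM mice were below all 3 Normal mice. Herpud1 was 2.31-fold lower in STAM-INS than in Normal, a difference of -1.21 ± 0.33 (95% interval -1.96 to -0.46, adjusted p = 0.0450 in limma). In STAM-NON the difference from Normal was -0.74 ± 0.33 and did not pass (adjusted p = 0.143 in limma), and STAM-INS differed from STAM-NON by -0.46 ± 0.33 (adjusted p = 0.725 in limma). The call in STAM-INS lay close to the threshold, since the sign was the same under all 24 alternative settings, and 11 of them passed, with differences between -1.55 and -0.93. Left out in turn, STAM-INS 1, STAM-INS 2, STAM-NON 2 and each Normal mouse ended it, the adjusted p reaching 0.137 without Normal 3, and so did centring on spike-in controls (-1.04, adjusted p = 0.0596 in limma) and quantile normalisation (-0.95, adjusted p = 0.0881). STAM-INS 2 and 3 shared a row of the slide layout with the Normal arrays, and within this row the difference was -0.93. This gene has the ERSE-II match printed above, and Hspa5 and Hsp90b1 have ERSE matches. In STAM-INS the difference from Normal was -1.21 for Herpud1, 0.47 for Hspa5 and -0.31 for Hsp90b1, and only that of Herpud1 passed.

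The transcription factors came next. Xbp1 encodes the factor whose mRNA Ire1 splices, and unspliced and spliced forms are not told apart here. Its signal was 5.97, 6.88 and 6.60 in STAM-NON, 6.94, 6.81 and 7.02 in STAM-INS, and 7.87, 7.38 and 6.86 in Normal. Normal 1 and 2 were above all 6 STAM mice and Normal 3 was among them. STAM-NON differed from Normal by -0.88 ± 0.29 (95% interval -1.54 to -0.22, adjusted p = 0.0699 in limma), and STAM-INS by -0.44 ± 0.29 (adjusted p = 0.316 in limma). The former passed without STAM-NON replicate 2 (-1.08, adjusted p = 0.0416 in limma) and after another background correction, normexp (-0.91, adjusted p = 0.0436), and was -0.63 without STAM-NON replicate 1.

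Atf4, the factor translated when eIF2α is phosphorylated, was even within groups, with SDs of 0.11, 0.11 and 0.098. It was at 6.08, 6.26 and 6.27 in STAM-NON, 6.65, 6.49 and 6.70 in STAM-INS, and 6.35, 6.16 and 6.21 in Normal. All 3 STAM-INS mice were above the other 6 mice, and STAM-NON overlapped with Normal. STAM-INS exceeded STAM-NON by 0.41 ± 0.11 (95% interval 0.15 to 0.67), and this was the member with the smallest adjusted p in that comparison, 0.432 in limma. STAM-INS exceeded Normal by 0.38 ± 0.11 (adjusted p = 0.0606 in limma), while STAM-NON differed from Normal by -0.03 ± 0.11, or 0.28 on spike-in controls. The other probe gave 0.30 and 0.36 for the comparisons of STAM-INS, and on it too all 3 STAM-INS mice were above the other 6 mice. Between STAM-INS and Normal the value passed at 3 other scalings, with 0.54 on spike-in controls (adjusted p = 0.0472), 0.51 on probes detected on all arrays (adjusted p = 0.0248) and 0.61 after quantile normalisation (adjusted p = 0.0139), and at these 3 scalings it was Atf4, and not Herpud1, that was called between STAM-INS and Normal. Groups that did not overlap were found for 12.7% of all genes between STAM-INS and STAM-NON and for 44.9% between STAM-INS and Normal, and among the members for 1 and 6 of 10.

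Ddit3 encodes Chop, the factor that links lasting ER stress to cell death. Its signal was 1.68, 0.35 and 0.41 in STAM-NON, -0.12, 0.30 and 0.56 in STAM-INS, and -1.01, -0.83 and -0.16 in Normal. Every STAM mouse was above every Normal mouse, the gap between STAM-INS 1 and Normal 3 being small, and STAM-NON 1 was the highest. Ddit3 was 2.78-fold higher in STAM-NON than in Normal, a difference of 1.47 ± 0.38 (95% interval 0.59 to 2.35, adjusted p = 0.0379 in limma). In STAM-INS it differed from Normal by 0.91 ± 0.38 and did not pass (adjusted p = 0.143 in limma). STAM-INS and STAM-NON differed by -0.56 ± 0.38, with an interval of -1.44 to 0.32 and overlapping groups (adjusted p = 0.716 in limma), so a lower level with insulin was not shown. Without STAM-NON replicate 1 the difference from Normal was 1.04 and no longer passed (adjusted p = 0.0736 in limma), and that between STAM-INS and STAM-NON was -0.13. The sign of the STAM-NON difference was the same under all 24 alternatives and 12 of them passed. Leaving out any array other than STAM-NON 2 and STAM-INS 1 ended the call, with adjusted p up to 0.110. STAM-NON and Normal arrays shared no row of the slide layout, and with the row as a block the difference was 2.02 and did not pass (adjusted p = 0.247 in limma).

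Trib3 and Chac1 are targets of Atf4 and Chop. Trib3 encodes a pseudokinase that binds Akt in insulin signalling, and it was at 4.89, 2.86 and 2.08 in STAM-NON, 2.39, 2.23 and 2.21 in STAM-INS, and 1.89, 2.74 and 3.18 in Normal. STAM-NON 1 was far above the other 8 mice, among which the 3 groups overlapped. The difference between STAM-NON and Normal was 0.67 ± 0.64 (adjusted p = 0.473 in limma) and turned to -0.14 without STAM-NON replicate 1. STAM-INS differed from STAM-NON by -1.0 ± 0.64 (adjusted p = 0.697 in limma), or -0.19 without that replicate. Chac1 encodes an enzyme that breaks down glutathione, and it was at 1.74, 1.61 and 1.86 in STAM-NON, 0.56, 2.48 and 1.32 in STAM-INS, and 2.39, 1.38 and 1.92 in Normal. STAM-INS held both the lowest and the highest of the 9 values, and the differences from Normal were -0.16 ± 0.45 in STAM-NON and -0.44 ± 0.45 in STAM-INS (adjusted p = 0.812 and 0.515 in limma). On spike-in controls the former turned to 0.15.

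**Figure D2:**
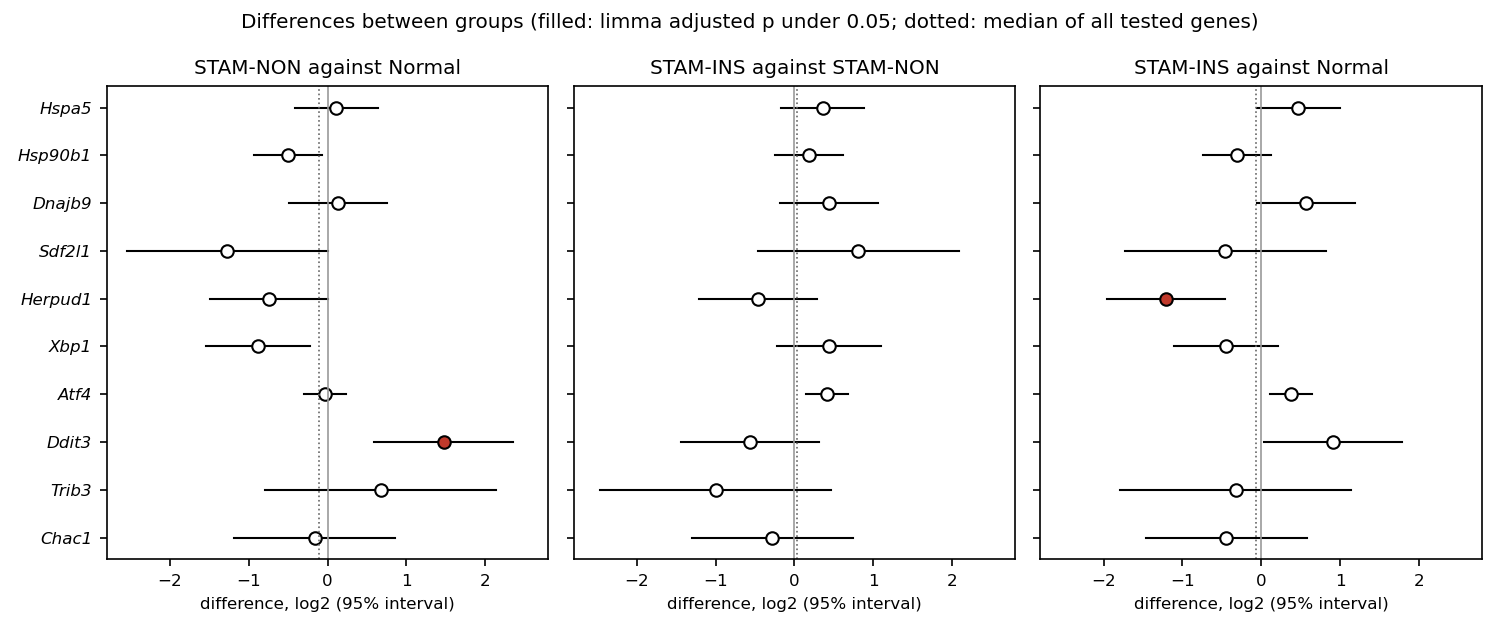
Difference between groups on the log2 scale (horizontal axis, point with 95% interval from limma) for each of the 10 genes, in 1 panel per comparison, with filled points where the adjusted p was under 0.05, a solid line at 0 and a dotted line at the median of all tested genes. The filled points are Ddit3 (1.47) for STAM-NON against Normal and Herpud1 (-1.21) for STAM-INS against Normal.

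Several members had 1 mouse far from the rest of its group. STAM-NON 1 was the lowest of the 9 arrays for 5 members (Hspa5, Hsp90b1, Sdf2l1, Xbp1 and Atf4) and the highest for 2 (Ddit3 and Trib3), while over all tested genes it was the lowest for 22.9% and the highest for 11.9%. Against the mean of the other 2 mice of its group it was at -0.70 for Hspa5, -0.77 for Xbp1, 1.30 for Ddit3 and 2.42 for Trib3, beside a median of -0.05 over all genes. The chaperone genes Hspa5, Hsp90b1 and Sdf2l1 were thus at their lowest in the mouse where Ddit3 and Trib3 were at their highest, while Dnajb9, the other chaperone-related member, was lowest in Normal 2. Nothing in the labels sets this mouse apart, and 59.3% of its spots were well above background, within the range of the other arrays. Leaving it out took the called members between STAM-NON and Normal from 1 to 0.

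Over the 9 arrays Hsp90b1 and Sdf2l1 had a Pearson correlation of 0.90, Sdf2l1 and Xbp1 0.80, Xbp1 and Ddit3 -0.92 and Hsp90b1 and Ddit3 -0.85. These values describe 9 arrays in 3 groups that share the group differences and STAM-NON 1. Likeness was ranked among other named genes tested that had a value on all 9 arrays. Symbols with Gm or LOC and digits, or with Rik, were left out. So were symbols not written as a capital followed by small letters, digits or hyphens. Of the genes ranked, those most like Hspa5 were Manf, an ER-resident secreted factor induced by ER stress (r = 0.97), Cdk2ap2, Mfsd6, Nme6 and Gmppb. The genes most like Ddit3 were Pdlim4 (r = 0.96), Fabp7, Cidea, Anapc16 and Fam131c.

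The rest of the pathway was read from lists of genes with known roles, in which differences are from the same fit. The list of 30 tested Atf4 target and amino acid response genes held 6 that were higher in STAM-NON than in Normal and none that was lower, with a median difference of 0.36 beside -0.11 over all genes. Over all genes 7.87% were higher and 8.93% lower. Psat1 and Mthfd2, among the 6, were above background in no Normal mouse and so entered the test through the STAM groups, where they were high. Among probes detected on all 9 arrays 6 genes of the list were called, all higher. Without STAM-NON replicate 1 the number was again 6 and the median 0.41. STAM-INS also had 6 higher than Normal and none lower (6.15% and 7.49% over all genes), or 5 among probes detected on all arrays, with a median of 0.21, and none of the list passed between STAM-INS and STAM-NON. Both comparisons share the Normal arrays. The sign of the list median was the same at all scalings tried, and the number called in STAM-NON was 8 on spike-in controls, 8 after quantile normalisation and 7 on the array median.

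**Figure D3:**
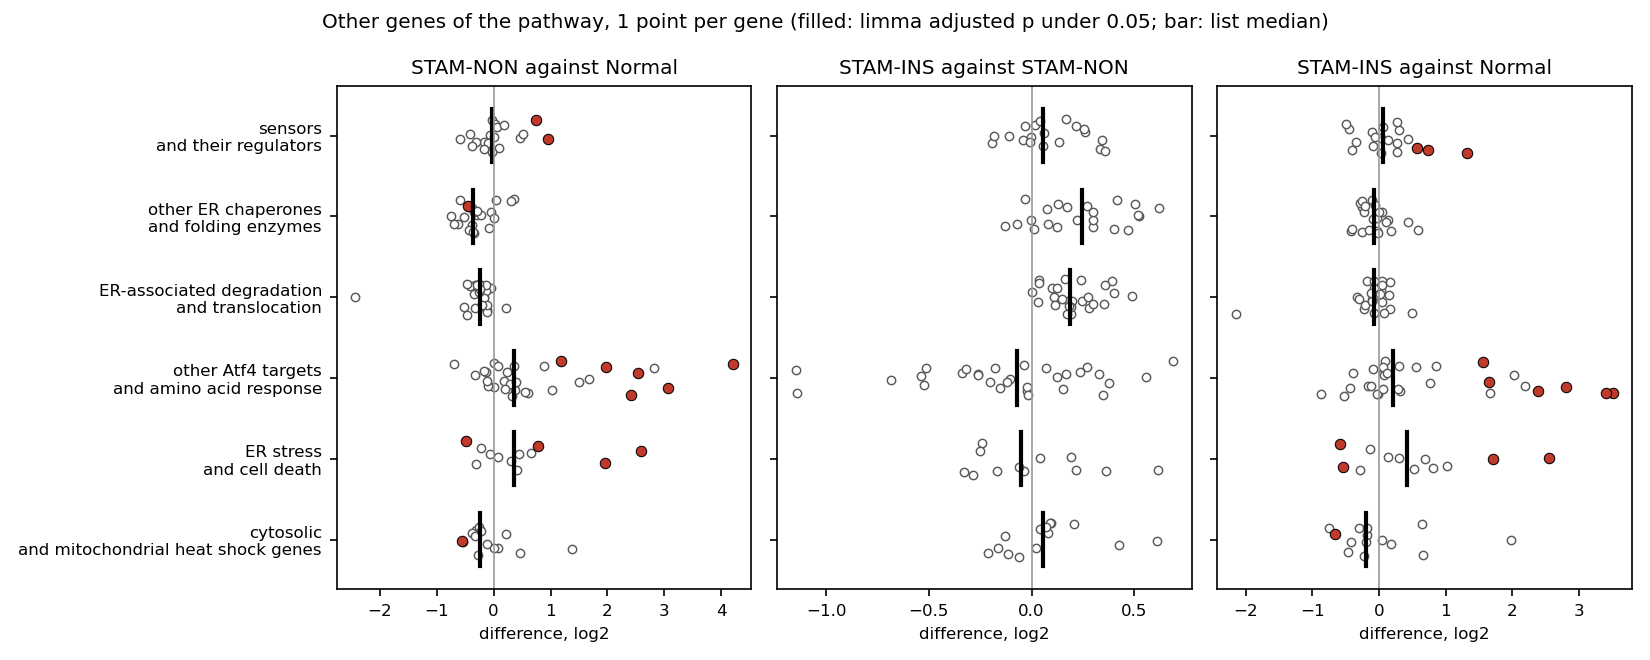
Difference between groups on the log2 scale (horizontal axis, scale differing between panels) for every tested gene of 6 lists, with 1 point per gene, filled where the adjusted p from limma was under 0.05, and a bar at the list median. The Atf4 target list holds 6 filled points to the right of 0 in each comparison with Normal, and no point is filled for STAM-INS against STAM-NON.

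Psat1, an enzyme of serine synthesis, was at 1.03, -0.93 and -0.37 in STAM-NON and at -1.21, -0.57 and -0.54 in STAM-INS, while no Normal array measured it above background. The increase over Normal was at least 13.9-fold in STAM-NON and at least 8.66-fold in STAM-INS (adjusted p = 0.00402 and 0.00387 in limma). The fitted differences of 4.2 and 3.51 became 1.91 and 1.38 with normexp, and both passed there and with no filter on dim probes. Asns, the enzyme that makes asparagine, was at 1.58, 1.74 and 2.15 in STAM-NON, 2.95, 1.35 and 1.98 in STAM-INS, and -0.81, -0.63 and -0.70 in Normal. All 6 STAM mice were far above the 3 Normal mice. The difference from Normal was 2.54 ± 0.35 in STAM-NON (adjusted p = 0.00818 in limma) and 2.81 ± 0.35 in STAM-INS (adjusted p = 0.00381 in limma). With the slide row as a block, Asns was at 1.26 in STAM-NON, and none of the 4 genes named here in full (Psat1, Asns, Fgf21 and Mthfd2) passed in STAM-NON (adjusted p between 0.112 and 0.312).

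Fgf21, a hormone that the liver secretes in fasting and amino acid shortage, was at 2.36, 1.39 and 1.08 in STAM-NON, 1.64, 1.27 and 2.91 in STAM-INS, and -0.91, -2.14 and -1.32 in Normal. It was 8.39-fold higher in STAM-NON and 10.5-fold higher in STAM-INS (adjusted p = 0.0125 and 0.00676 in limma). Mthfd2, a mitochondrial enzyme of folate metabolism, was not above background in Normal mice, over which the increase was at least 2.54-fold in STAM-NON and at least 2.5-fold in STAM-INS (adjusted p = 0.0216 and 0.0214 in limma). In each STAM group 9 of 22 alternatives ended this call, among them normexp (0.43 and 0.42), no filter on dim probes and the omission of Normal 2 or 3, of STAM-NON 1 or 3 for the call in STAM-NON, and of any STAM-INS mouse for that in STAM-INS, with adjusted p between 0.0507 and 0.0862 for these. The other 2 genes called in both groups, named after their values were seen, were the transcription factors Atf3 (1.98 in STAM-NON and 1.64 in STAM-INS) and Atf5 (1.19 and 1.56). Atf3 was at 0.87 in STAM-NON 1 and at -0.93 and -0.80 in STAM-NON 2 and 3. With no filter on dim probes, Psat1 and Asns were the only genes of the list called in STAM-NON, so Atf3 and Atf5 did not pass there. Between STAM-INS and STAM-NON the largest differences in the list were -1.15 for the stress protein Nupr1 and -1.14 for the lipoprotein receptor Vldlr, both short of the threshold (adjusted p = 0.732 and 0.515 in limma). Nupr1 was at 4.18 in STAM-NON 1 and at 0.58 and 0.70 in the other 2 mice.

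**Figure D4:**
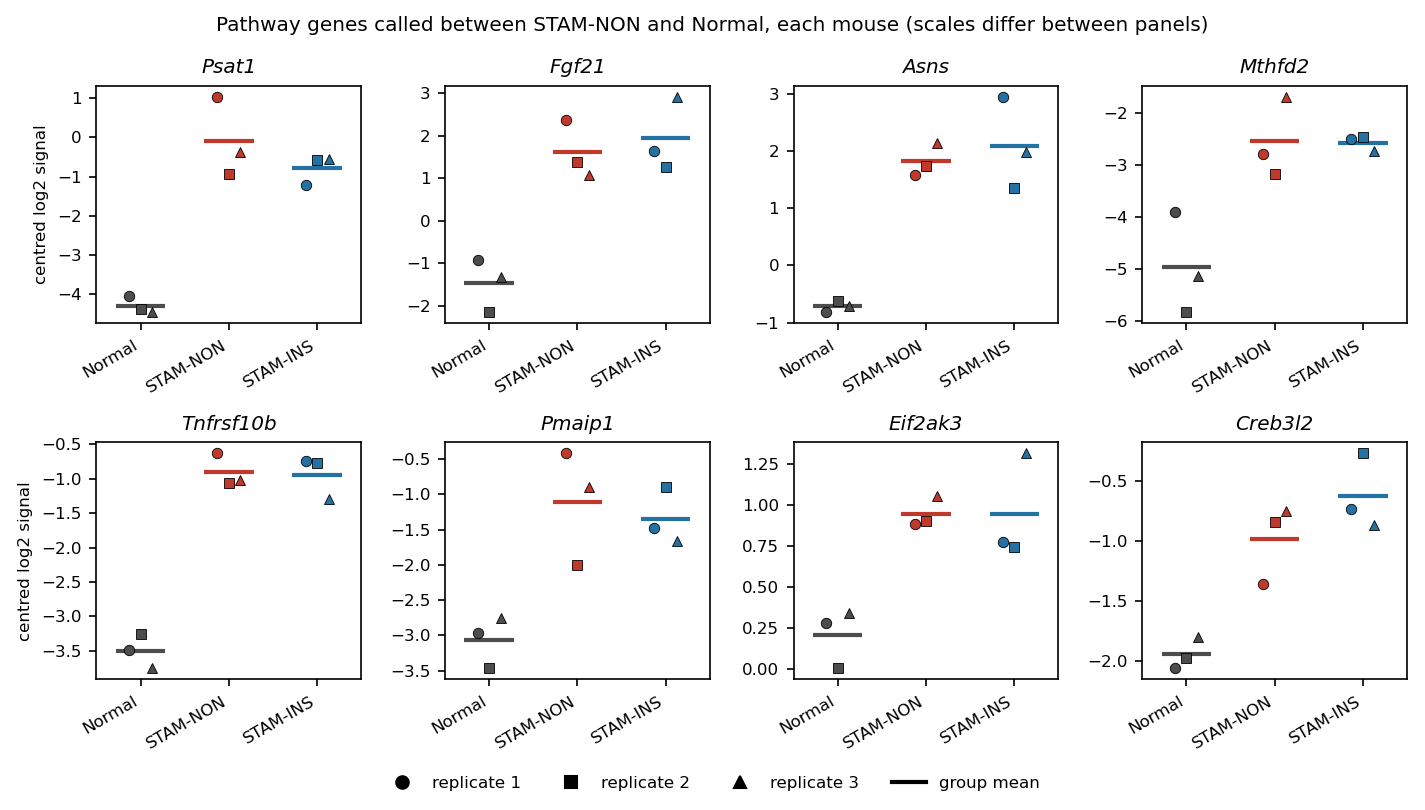
Centred log2 signal (vertical axis, scale differing between panels) in each mouse for 8 pathway genes that were higher in STAM-NON than in Normal, with a marker per replicate and a bar at the group mean. For each gene all 6 STAM mice lie above the 3 Normal mice. The genes were chosen by their call in STAM-NON against Normal, so their separation there follows largely from that choice. Over all genes, groups did not overlap for 40.9% between STAM-NON and Normal and for 44.9% between STAM-INS and Normal. Psat1 and Mthfd2 were well above background on no Normal array, Tnfrsf10b on 1 of 3 and Pmaip1 on 2 of 3.

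Of 19 tested sensors and regulators, 2 were higher in STAM-NON than in Normal and none lower, beside 7.87% and 8.93% of all genes. The number higher was 0 with arrays centred on their median, 4 on spike-in controls and 1 without STAM-NON replicate 1. Eif2ak3, the sensor Perk, was at 0.88, 0.90 and 1.05 in STAM-NON, 0.77, 0.74 and 1.32 in STAM-INS, and 0.28, 0.0019 and 0.34 in Normal. It differed from Normal by 0.74 ± 0.18 in STAM-NON (adjusted p = 0.0296 in limma) and by the same amount in STAM-INS (adjusted p = 0.0310). Creb3l2, a membrane-bound factor related to Atf6, was higher by 0.96 in STAM-NON and 1.32 in STAM-INS (adjusted p = 0.0238 and 0.00791 in limma). In STAM-NON 9 of 23 alternatives ended the call of Eif2ak3 and 8 of 23 that of Creb3l2, with centring on the array median (adjusted p = 0.0881 and 0.0628) and the omission of STAM-NON 3 (0.0778 and 0.0651) or of any Normal mouse among them, and of STAM-NON 1 for Eif2ak3 only (0.0698). In STAM-INS 8 of 23 ended that of Eif2ak3, including the omission of STAM-INS 2 or 3 or of any Normal mouse, and none that of Creb3l2. STAM-INS had a 3rd called gene, the interferon-inducible eIF2α kinase Eif2ak2 (0.57, adjusted p = 0.0408 in limma), a call that 12 of 23 alternatives ended. The list thus had 3 of 19 higher in STAM-INS and none lower, beside 6.15% and 7.49% of all genes. In STAM-INS the number higher was 1 with arrays centred on their median and 2 without STAM-NON replicate 1. Ern1 and Atf6, which encode the other two sensors, differed from Normal by -0.07 and 0.10 in STAM-NON. The largest differences between STAM-INS and STAM-NON in the list were 0.36 for Creb3l2 and 0.34 for Ern1, neither called.

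Among 22 other chaperones and folding enzymes of the ER, none was higher in STAM-NON than in Normal and 1 was lower, Cnpy2 (-0.44, adjusted p = 0.0412 in limma). Over all genes 7.87% were higher and 8.93% lower. The median difference was -0.35 beside -0.11 over all genes, and 4 of 22 were above 0. The list had no called gene in STAM-INS against Normal (13.6% of all genes), where the median was -0.07 and the largest differences were 0.58 for Manf and 0.43 for Dnajc10. STAM-INS against STAM-NON gave a median of 0.25 beside 0.03 over all genes, with 0.62 for Manf and 0.52 for the Hsp70-like chaperone Hyou1. Without STAM-NON replicate 1 the first of these medians, from Normal to STAM-NON, became -0.11 and the last, from STAM-NON to STAM-INS, became 0.02, and Cnpy2 no longer passed (adjusted p = 0.111). On spike-in controls 2 genes were higher in STAM-NON than in Normal and none lower, 9 of 22 were above 0 with a median of -0.04, and Cnpy2 was at -0.13 (adjusted p = 0.545).

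Of 26 tested genes of ER-associated degradation and translocation, none was called in any of the 3 comparisons. Over all genes 16.8% were called for STAM-NON against Normal, 0.0822% for STAM-INS against STAM-NON and 13.6% for STAM-INS against Normal. Between STAM-NON and Normal 1 of 26 was above 0, and between STAM-INS and STAM-NON all 26 were, with a median of 0.19 beside 0.03 over all genes. Without STAM-NON replicate 1 these counts were 5 and 19 of 26 and the medians were -0.08 and 0.08. Centred on spike-in controls, the counts were 18 and 18 of 26 and the median for STAM-NON against Normal turned to 0.08, beside 0.20 over all genes. Derl3, a channel component of degradation, was at -2.11, 2.70 and -0.81 in STAM-NON, 0.30, 0.07 and 0.25 in STAM-INS, and 1.98, 2.32 and 2.76 in Normal. The STAM-INS mice were all below the Normal mice, while STAM-NON 2 was as high as these. The differences from Normal of -2.43 ± 1.01 and -2.15 ± 1.01 did not pass (adjusted p = 0.124 and 0.179 in limma). The largest differences between STAM-INS and STAM-NON were 0.49 for Syvn1, the ubiquitin ligase Hrd1, and 0.40 for Spcs3.

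**Figure D5:**
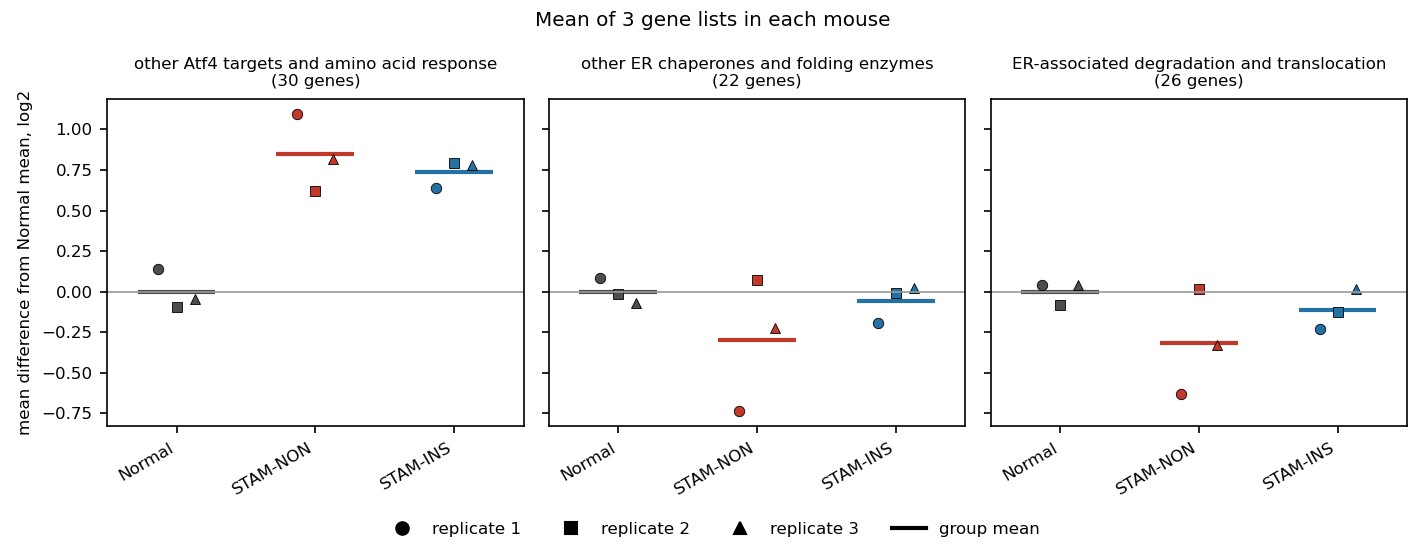
Mean difference from the Normal mean on the log2 scale (vertical axis) over the genes of 3 lists in each mouse, with a marker per replicate and a bar at the group mean. The mean of the Atf4 target list lies between 0.62 and 1.1 in the 6 STAM mice, above the 3 Normal mice. It includes Psat1, Mthfd2 and Aldh18a1, which were above background in no Normal mouse. Normal mice had 26 to 27 of the 30 genes of the list above background. By the list median, which is not drawn, STAM-INS 1 was at 0.11 and Normal 1 at 0.08. The mean of the list of other chaperones spans -0.74 to 0.07 in STAM-NON.

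Per mouse, the mean of the Atf4 target list was 1.1, 0.62 and 0.82 above the Normal mean in STAM-NON 1, 2 and 3 and between 0.64 and 0.79 above it in STAM-INS. This mean includes Psat1, Mthfd2 and Aldh18a1, which were above background in no Normal mouse and entered the test through STAM liver. Of the 30 genes of the list, 26 to 27 were above background in a Normal mouse. The median of the list was 0.42, 0.33 and 0.44 in STAM-NON, 0.11, 0.16 and 0.30 in STAM-INS, and 0.08, -0.08 and 0.0046 in Normal. The means of the other chaperones were -0.74, 0.07 and -0.22 in STAM-NON and those of the degradation list -0.63, 0.02 and -0.33. By the mean, STAM-NON 1 was lowest of the 9 mice for the chaperone and degradation lists and highest for the Atf4 targets. By the median of the Atf4 target list, STAM-NON 3 (0.44) was above STAM-NON 1 (0.42). STAM-NON 1 was also lowest for the mean of hepatocyte markers (-0.50). It was highest for the means of macrophage (1.86), stellate cell (1.48), biliary (1.17) and exocrine pancreas (1.29) markers. By median the macrophage markers were at 1.12 in STAM-NON 1, below STAM-NON 3 (1.40) and STAM-INS 2 (1.44). The exocrine mean is over 3 genes. In STAM-NON 1, Cela1 (0.50) and Cel (-1.78) were above all Normal mice and Ctrb1 (-0.23) was below them. The part of these cell types in the ER values of STAM-NON 1 was not tested. The 10 members themselves averaged between -0.23 and 0.06 in STAM-NON and between -0.33 and 0.11 in STAM-INS.

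Of 12 tested genes linked to cell death in ER stress, 3 were higher and 1 lower in STAM-NON than in Normal, beside 7.87% and 8.93% of all genes. Of the 3, Tnfrsf10b and Pmaip1 were not detected in every Normal mouse and entered the test through the STAM groups, where they were high. Tnfrsf10b, the death receptor that Chop is known to induce, was at -0.63, -1.06 and -1.02 in STAM-NON, -0.75, -0.77 and -1.30 in STAM-INS, and -3.48, -3.26 and -3.75 in Normal, where 1 of 3 arrays measured it above background. It was higher by 2.60 ± 0.21 in STAM-NON and 2.56 ± 0.21 in STAM-INS (adjusted p = 0.00152 and 0.00173 in limma). Pmaip1, the pro-apoptotic protein Noxa, was higher by 1.95 and 1.71 (adjusted p = 0.0202 and 0.0290 in limma), with 2 of 3 Normal arrays above background. With normexp the differences were 1.05 and 1.06 for Tnfrsf10b and 0.87 and 0.73 for Pmaip1, all called, and 8 of 22 alternatives in STAM-NON and 10 of 22 in STAM-INS ended the call of Pmaip1, the omission of any Normal mouse, of STAM-NON 1 or 3 and of any STAM-INS mouse among them. Bcl2, which opposes apoptosis, was higher in STAM-NON (0.78, adjusted p = 0.0490), and Tmbim6, an ER membrane protein that protects from apoptosis, was lower (-0.48, adjusted p = 0.0392). Most alternatives ended these calls, 17 of 23 for Bcl2 and 15 of 23 for Tmbim6. Quantile normalisation ended both (adjusted p = 0.0638 and 0.266 in limma). Without STAM-NON replicate 1 the calls of Pmaip1, Bcl2 and Tmbim6 in STAM-NON did not pass (adjusted p = 0.0548, 0.131 and 0.0880 in limma), and on spike-in controls the list had 4 higher and none lower. In STAM-INS 2 genes were higher, Tnfrsf10b and Pmaip1, and 2 were lower, beside 6.15% and 7.49% of all genes. The 2 lower genes were the kinase Map3k5 (-0.59, adjusted p = 0.0180) and Mcl1 (-0.54, adjusted p = 0.0231). On spike-in controls neither passed (adjusted p = 0.0925 and 0.219) and the list had 4 higher and none lower, and Mcl1 also missed after quantile normalisation (0.136) and on detected probes (0.0935). The omission of STAM-INS 3 or of any Normal mouse ended both calls, that of STAM-INS 1 the call of Map3k5 and that of STAM-INS 2 the call of Mcl1. No gene of the list was called between STAM-INS and STAM-NON, where the largest differences were 0.61 for Bok and 0.36 for Bbc3.

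Heat shock genes of the cytosol and mitochondria, which answer to unfolded proteins outside the ER, held 1 called gene of 14. It was lower in both comparisons with Normal, beside 8.93% of all genes lower in STAM-NON and 7.49% in STAM-INS. Hspd1, the mitochondrial chaperonin Hsp60, was lower by -0.55 in STAM-NON and by -0.67 in STAM-INS (adjusted p = 0.0446 and 0.0272 in limma), and the call in STAM-NON was lost without STAM-NON replicate 1 (adjusted p = 0.0638). Centred on spike-in controls the differences of Hspd1 were -0.24 and -0.50, neither called. The largest differences between STAM-INS and STAM-NON were 0.61 for Hspa1a and 0.43 for Bag3, neither called.

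Whole liver holds several cell types, and fewer cells of a type and less RNA per cell cannot be told apart in these samples. Of 8 hepatocyte markers all were well above background on every array, and the difference of their mean from the Normal mean was -0.50, -0.10 and -0.23 in STAM-NON 1, 2 and 3 and between -0.19 and -0.11 in STAM-INS. The 1 called hepatocyte marker, Cps1 of the urea cycle, was lower than Normal in both STAM groups (-0.67 in each, adjusted p = 0.0297 and 0.0309 in limma). Macrophage markers included 4 of 9 that were higher in STAM-NON than in Normal and none that was lower. Higher too were 2 of 10 stellate cell and fibroblast markers, 3 of 6 biliary markers and 1 of 7 endothelial markers. Over all genes 7.87% were higher and 8.93% lower. The macrophage marker Gpnmb and the stellate cell marker Timp1 were above background in no Normal mouse. They entered the test through STAM liver, where they were high. Normal mice had 7 to 8 of 9 macrophage, 9 of 10 stellate cell and 5 to 6 of 6 biliary markers above background. In STAM-INS 3 macrophage, 1 stellate cell (Timp1) and 1 biliary marker were higher than in Normal. Over all genes 6.15% were higher and 7.49% lower in that comparison. No marker of any type was called between STAM-INS and STAM-NON, beside 0.0822% of all genes. The mean over macrophage markers was between 0.83 and 1.86 above Normal in STAM-NON and between 1.0 and 1.41 in STAM-INS, and that over stellate cell markers between 0.76 and 1.48 and between 0.23 and 1.05. Plasma cells have an ER response of their own, and 3 of 9 plasma and B cell markers had a tested probe, with none called. Of the 3 tested exocrine pancreas markers, Cela1 was higher in both STAM groups and Ctrb1 lower in STAM-NON. The part of these cell types in the values of the ER stress genes was not tested.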

How the data were processed

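Total RNA of 9 mouse livers was labelled with Cy3 and hybridised, 1 sample per array, to an Agilent SurePrint G3 Mouse GE array. The deposited values were 1-colour spot intensity from Agilent Feature Extraction 11.5.1.1 (per the submitters' processing notes), background-subtracted by the scanner software and not normalised between arrays. The deposited spot flags (above background, saturated, outlier) were used as given.

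From 59305 non-control spots, those with an outlier flag (161 to 217 per array) were left out, log2 of the processed signal was centred on the 75th percentile of its array, and spots of a probe were averaged. A probe entered the test if all 3 arrays of some group had it well above background, judged by a share of 0.5 or more of its spots. Groups came from the labels. The linear models of limma 3.58.1 (R 4.3.3; two-sided moderated tests by eBayes) were fitted to all 9 arrays with 6 residual degrees of freedom, with Benjamini-Hochberg adjustment over 26289 probes and a threshold of 0.05. The code was tested on simulated data. The labels give separate replicates of each group, the number of arrays limits the precision, and no array had a saturated spot. A gene was represented by its tested probe of highest mean, and probes were named through RefSeq accessions (27650 of 55681 probes). For a probe that no array of 1 group measured above background, "at least N-fold" is the bright mean over a floor, which per dim array is the lowest signal of any detected probe or, if higher, that of the probe itself.

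The members and lists were chosen with earlier results of these data known. All members were named, with, per list, comparison and direction, up to 4 called genes of largest difference, or 2 where none was called. For Hspa5 and Ddit3 the 5 most correlated of the genes ranked were named. Alternatives were other scalings, filters, background correction, tests (the methods' t-test among them, in its adjusted and unadjusted form), blocks and left-out arrays. The methods' t-test is the unpaired test that the study's methods name for group differences in general, while they name no test for the arrays. The normexp correction (offset 50) used the median spot signal, the signal column at hand. The alternatives for the pathway lists and their genes were chosen after seeing the data.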

Additional observations from a re-analysis of the deposited data

How the results depend on the processing

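Of 730 values of single member genes under other settings, 672 had the same direction and side of the threshold as reported, 25 no longer passed, 13 newly passed and 20 turned in sign. The number of called members between STAM-NON and Normal (1 as reported) was 2 with normexp and 0 with no filter on dim probes, the methods' t-test adjusted, only the 2 groups compared, the slide row as a block or the replicate block. Between STAM-INS and Normal (1 as reported) it was 2 with limma's trend and robust options, 5 with the unadjusted methods' t-test, and 0 with no filter, the adjusted t-test, only 2 groups or the slide row as a block. Between STAM-INS and STAM-NON (0 as reported) it was 1 with the unadjusted t-test. Leaving out 1 array gave 0 to 4, 0 to 1 and 0 to 0 called members for these comparisons, the 4 being reached without STAM-NON replicate 2 (Ddit3 higher; Hsp90b1, Sdf2l1 and Xbp1 lower).

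Called probes between STAM-NON and Normal numbered 4220 (1655 higher, 2565 lower), 250 with no filter, 30 and 7536 with the adjusted and unadjusted t-test, 2180 with only 2 groups, 15 with the slide row and 2016 with the replicate block, and 874 to 6191 with 1 array left out. Between STAM-INS and STAM-NON they numbered 24, 7 with no filter, 6 among probes detected on all arrays, 1 and 1498 with the t-test, 8 with only 2 groups, 13 with the slide row, 6 with the replicate block and 10 to 57 with 1 array left out. Between STAM-INS and Normal they numbered 3647 (1355 higher, 2292 lower), 2211 on spike-in controls, 571 with no filter, 8813 with the unadjusted t-test, 2157 with the slide row, 1871 with the replicate block and 1172 to 4493 with 1 array left out. The split between higher and lower moved with the scaling for STAM-NON against Normal, with 2732 and 453 on spike-in controls, 1086 and 2051 on the array median, 2145 and 990 on probes detected on all arrays, 1500 and 1494 after quantile normalisation and 1313 and 3389 with normexp. For STAM-INS against Normal it was 1501 and 710, 801 and 2111, 1705 and 1277 and 1328 and 1827 under the first 4 of these. Called Atf4 targets (6 in each comparison with Normal) numbered 2 with no filter, 0 with the adjusted t-test and 0 with the slide row in STAM-NON, 14 with the unadjusted t-test and 12 with only 2 groups in STAM-INS, and 4 to 9 in both with 1 array left out.

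The sign turned for STAM-NON against Normal in Atf4 (0.28 on spike-in controls, 0.14 on detected probes, 0.25 after quantile normalisation, 0.015 as the mean of its probes, and -0.073 to 0.029 with 1 array left out), Chac1 (0.15 on spike-in controls, 0.0097 on detected probes, 1.18 with the slide row, and -0.42 to 0.080 with 1 array left out), Hspa5 (-0.041 on the array median, and -0.042 to 0.35 with 1 array left out), Dnajb9 (-0.023 on the array median), Herpud1 (0.089 with the slide row) and Trib3 (-0.14 without STAM-NON replicate 1 and up to 1.27 without STAM-NON replicate 3). It turned for STAM-INS against STAM-NON in Dnajb9 (-0.0032 with the slide row) and Chac1 (-0.79 to 0.17 with 1 array left out), and for STAM-INS against Normal in Chac1 (0.0031 with the slide row, and -0.96 to 0.0031 with 1 array left out).

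Replicates with the same number did not deviate together (r between -0.29 and 0.15 over 9 pairs, beside -0.19 to 0.28 over 18 pairs of different number), so the replicate block pairs samples that share only a number. The slide as a block could not be fitted for comparisons with Normal and gave 24 called probes, as reported, between STAM-INS and STAM-NON. The cause of these changes was not tested.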
